A study of Mus musculus with 12 samples.

Results

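The polyamine genes described here are Sat1, Odc1, Amd1, Srm, Sms, Smox, Oaz1, Oaz2 and Azin1, 9 of the 12786 genes listed in at least 1 of the deposited tables. Sat1 was chosen by its rise with Klf4 siRNA over Scramble in these same samples, so its values are given as a description with no test. The other 8 were chosen by function, as core genes of polyamine synthesis, breakdown and antizyme control. Each of the 9 occurred once in the tables, and all passed the filter on low counts in every comparison.

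The data were 12 RNA-seq libraries of GT1-7, an immortalised line of GnRH-producing neurons from the mouse hypothalamus, in 3 groups of 4. Klf4 encodes a zinc finger transcription factor. The Klf4 siRNA group was given an siRNA against it, and the Scramble group a non-targeting siRNA, both with lipofectamine 2000 in Opti-MEM I and for 24 h. The Vehicle group, which no label describes as transfected, was held without serum for 6 h and then in DMEM lacking Ca2+, with antibiotic, for 1 h. All cells had been grown in DMEM with 10% FBS. Vehicle thus differed from both siRNA groups in medium, serum, Ca2+ and transfection at once, and these cannot be told apart. No label says that the 4 samples of a group were separate cultures, so p-values measure only the spread between these samples, which may be technical.

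Each library held 25992363 to 39674984 counts, with totals that overlapped between groups. Klf4 itself stood at 0.928 to 1.80 CPM (the share of its library's counts, with libraries put on 1 scale by TMM) with Klf4 siRNA, 3.43 to 4.61 CPM in Scramble and 4.27 to 5.56 CPM in Vehicle, and its log2 fold change of Klf4 siRNA over Scramble was -1.53 ± 0.19 (SE, edgeR adjusted p = 5.769e-05). Gm10800, a gene model, held 25825 and 10572 counts in Klf4 siRNA samples 1 and 4, against 687 and 259 in samples 2 and 3 and 54 to 238 in the other groups, so counts of calls were also made without samples 1 and 4. Of 7 markers of the GnRH line, 6 were listed (Scg2 was not), and their summed level was 2079 to 2448 CPM in Scramble, 1086 to 1250 CPM with Klf4 siRNA and 1155 to 1342 CPM in Vehicle. Markers of glia and endothelium were mostly not listed: 1 of 5 for astrocytes (Aldh1l1, 10.3 to 26.2 CPM over all samples), 2 of 5 for the oligodendrocyte lineage (4.61 to 7.88 CPM), 1 of 5 for microglia (Csf1r, 24.9 to 41.9 CPM) and 1 of 4 for endothelium (Kdr, 14.9 to 54.5 CPM). All 5 fibroblast markers were listed, and their sum was 95.1 to 108.8 CPM with Klf4 siRNA, 120.1 to 128.4 CPM in Scramble and 167.7 to 177.9 CPM in Vehicle. The part of these shifts in the results was not tested.

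Polyamines are small, positively charged molecules that bind RNA and DNA and that dividing and secreting cells keep within narrow limits. Putrescine is made from ornithine, and spermidine and spermine are built from it by adding aminopropyl groups that come from decarboxylated S-adenosylmethionine. Breakdown runs the other way, through acetylation and oxidation, and acetylated polyamines can leave the cell. Antizymes close a feedback loop: high polyamine levels promote their translation, and they in turn bind ornithine decarboxylase and send it to the proteasome. In neurons spermine also blocks several ion channels from the inside. Much of this control acts on translation and protein stability, which mRNA counts do not measure.

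Among the 8 genes chosen by function, 3 rose and 1 fell with Klf4 siRNA over Scramble, where 36% of the 12663 genes tested passed the same threshold of a Benjamini-Hochberg adjusted p under 0.05. The risers were Smox, Oaz1 and Srm, and the gene that fell was Amd1. Between Scramble and Vehicle, 1 of the 8 was higher in Scramble (Oaz2) and 2 were lower (Sms and Srm), where 53.9% of the 12633 genes tested passed. Between Klf4 siRNA and Vehicle, 3 were higher with the siRNA (Smox, Oaz1 and Oaz2) and 3 lower (Amd1, Sms and Srm), where 45.4% of 12684 passed. The members' shares were thus 50%, 37.5% and 75%, the first and last above the share over all genes and the second below it. With 8 genes chosen with these data known, the shares were not tested and are read as no result about polyamine genes, and the single genes carry the description. The median log2 fold change of the 8 was 0.08, -0.08 and -0.01 in the 3 comparisons, beside 0.00, 0.01 and 0.02 over all genes tested. The comparisons share samples, Scramble in the first pair of them for instance, so a gene's 3 fold changes are not independent. These are bulk libraries, in which a lower level can come from fewer cells that express a gene or from less RNA per cell, and the 2 cannot be told apart.

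**Figure D1:**
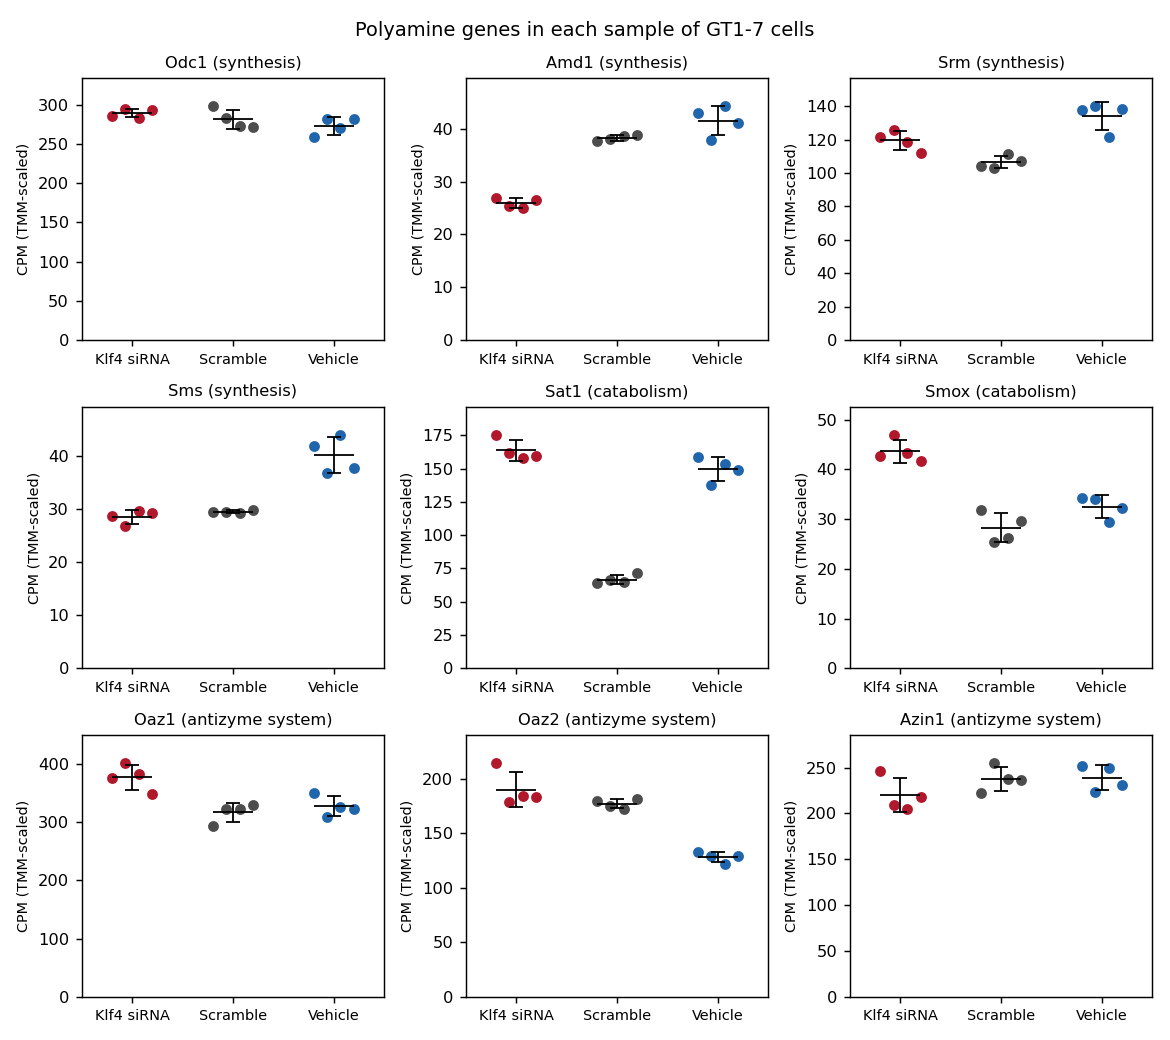
Level of each polyamine gene in every sample, in CPM scaled by TMM over all 12 samples; points are samples 1 to 4 from left to right, and bars are the mean ± SD of 4. Scramble samples of Sat1 lie between 64.0 and 71.4 CPM, below every other sample, and Klf4 siRNA samples of Amd1 lie between 25.0 and 26.9 CPM, below every other sample.

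Sat1 encodes the acetyltransferase that tags spermidine and spermine for oxidation or export, and it is the inducible step of polyamine breakdown. It stood at 175.3, 161.5, 158.0 and 159.6 CPM in Klf4 siRNA samples 1 to 4, at 64.01, 66.59, 64.60 and 71.40 CPM in Scramble and at 158.9, 137.5, 153.1 and 148.8 CPM in Vehicle. The 4 Scramble samples were lower than all 8 others, and the ranges of Klf4 siRNA and Vehicle overlapped. Group means were 163.6 ± 7.91, 66.7 ± 3.36 and 149.6 ± 9.07 CPM (SD, n = 4), from 1694 to 5736 counts per sample. The log2 fold change was 1.30 ± 0.05 (SE) for Klf4 siRNA over Scramble, a 2.46-fold difference that ranked 126 from the highest of 12663 genes. Against Vehicle, the same gene differed by -1.17 ± 0.06 in Scramble, at 44.6% of the Vehicle level, and by 0.14 ± 0.06 with Klf4 siRNA. The rise that chose this gene was thus between a control with less Sat1 mRNA than Vehicle and an siRNA group whose range overlapped that of Vehicle. Vehicle differed from both in medium, serum, Ca2+ and transfection, so these values do not say which siRNA group moved. Low Scramble values were also part of what chose Sat1. The summed GnRH line markers above had the reverse order, high in Scramble and lower in both other groups. In the authors' deposited table the log2 fold change of Sat1 was 1.31 for Klf4 siRNA over Scramble and -1.17 for Scramble over Vehicle. Sat1 was the one polyamine gene of the 9 that they called in either, on the same values that chose it. Genes they did not call could still have a low FDR. For Klf4 siRNA over Scramble the authors' FDR was 1.471e-12 for Amd1 and 1.613e-12 for Smox, neither of them called.

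Sat1 lies on the X chromosome at 155213132 to 155216449, minus strand (mm10, GENCODE M21), as does Sms. GENCODE lists 7 transcripts of it, of which 2 are coding, 1 is marked for nonsense-mediated decay and 4 retain an intron. The decay-marked transcript is 1272 bases long, 110 more than a coding transcript of 1162 bases that it matches on both sides of the insertion. Inclusion of such an extra exon is known to fall when polyamines are high and to give an RNA without functional enzyme. Counts per gene add all 7 together, so the values above do not say how much of the Sat1 RNA was coding. GENCODE also holds 2 pseudogenes of Sat1, 96.7% identical over 515 bases and 95.8% identical over 474 bases, neither of them listed. How reads shared with them were assigned is not known.

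Amd1 (chromosome 10, 40287458 to 40302186, minus strand) was the one gene of the 8 that fell with Klf4 siRNA over Scramble. It encodes S-adenosylmethionine decarboxylase, which makes the aminopropyl donor for both spermidine and spermine. Its level was 26.86, 25.32, 24.96 and 26.56 CPM in Klf4 siRNA samples 1 to 4, 37.63, 38.11, 38.67 and 38.89 CPM in Scramble and 43.00, 37.89, 44.22 and 41.09 CPM in Vehicle. All 4 Klf4 siRNA samples were lower than all 8 others, and Scramble and Vehicle overlapped. With Klf4 siRNA, Amd1 mRNA was 67.9% of the Scramble level (log2 fold change -0.56 ± 0.05 SE, edgeR adjusted p = 5.077e-06) and 62.8% of the Vehicle level (-0.67 ± 0.07, adjusted p = 4.465e-06). Scramble and Vehicle differed by -0.12 ± 0.06 (95% interval -0.24 to 0.01, adjusted p = 0.110), a difference that passed without Vehicle sample 2 (-0.16, adjusted p = 0.0273). Amd2, a protein-coding near copy that is 99.6% identical over 3202 bases, held 23 to 53 counts per sample against 819 to 1525 for Amd1. It was 64.7% of the Scramble level with Klf4 siRNA (-0.63 ± 0.21, adjusted p = 0.0357), a call lost without Klf4 siRNA sample 2 or 3 or Scramble sample 1, 2 or 4 (0.0766 to 0.0919) and with DESeq2 (0.0628). There are 7 pseudogenes of Amd1 past 90% identity over 200 bases or more. No source used here says how reads shared among such copies were assigned, and the counts of both genes are uncertain to that extent.

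The promoters of Sat1 and Amd1 are printed because these were the member with the largest rise and the one member that fell between Klf4 siRNA and Scramble, and because Krüppel-like factors are known to bind CACCC and GC-rich boxes. Each line gives the 250 bases before the RefSeq start (GRCm38.p6, the same assembly as mm10, minus strand), with CACCC and CCGCCC on either strand in capitals.

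Sat1, chrX:155216450-155216699: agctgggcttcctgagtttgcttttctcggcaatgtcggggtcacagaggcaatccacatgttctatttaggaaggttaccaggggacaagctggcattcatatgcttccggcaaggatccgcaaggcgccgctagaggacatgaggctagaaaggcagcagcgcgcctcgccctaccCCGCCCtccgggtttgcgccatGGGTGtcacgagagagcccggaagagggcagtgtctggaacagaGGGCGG

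Amd1, chr10:40302189-40302438: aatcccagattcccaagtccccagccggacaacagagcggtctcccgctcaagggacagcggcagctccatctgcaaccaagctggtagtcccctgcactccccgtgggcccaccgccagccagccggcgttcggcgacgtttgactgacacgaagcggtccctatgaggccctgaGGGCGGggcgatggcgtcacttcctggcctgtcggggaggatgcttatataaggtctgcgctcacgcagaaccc

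The Sat1 window held 1 CACCC, whose first base lies at -50 from the start, and 2 CCGCCC, at -72 and -6. The Amd1 window held no CACCC and 1 CCGCCC, at -74. RefSeq gave windows of 300 bases, 250 before and 50 after a start, for 7 of the 9 genes, 8 windows in all. CACCC was in 7 of these 8 and in 57.5% of all 32851 windows, and CCGCCC was in 6 of 8 and in 35.7% of all windows. The E-box CACGTG, which Myc and its partners bind, was in 1 of 8 windows (Sms) and 7.15% of all, and TGANTCA, the AP-1 box, was in none of 8 and 7.81% of all. Both strands were searched, and 1 pair of a CACCC and a CCGCCC overlapped, in the Odc1 window. A match describes the letters and says nothing of binding in these cells.

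Odc1 (chromosome 12, 17544794 to 17551505, plus strand) encodes ornithine decarboxylase, which makes putrescine and is among the shortest-lived proteins known. Its level was 283.6 to 294.5 CPM with Klf4 siRNA, 271.8 to 297.9 CPM in Scramble and 258.8 to 281.9 CPM in Vehicle. No comparison passed: the log2 fold change was 0.04 for Klf4 siRNA over Scramble (95% interval -0.04 to 0.13, adjusted p = 0.431), 0.04 for Scramble over Vehicle (-0.05 to 0.14, adjusted p = 0.422) and 0.09 for Klf4 siRNA over Vehicle (-0.01 to 0.19, adjusted p = 0.119). The last interval comes from samples that did not overlap, by 283.6 against 281.9 CPM. These intervals leave room for differences of up to 0.19 on the log2 scale. GENCODE holds 14 near copies of Odc1, of which 13 are pseudogenes. The one listed in the tables, AW146154, had 3864 counts over all samples against 110118 for Odc1.

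Srm (chromosome 4, 148591503 to 148594993, plus strand) and Sms (X chromosome, 157443855 to 157492287, minus strand) encode the synthases of spermidine and spermine. Srm passed the test between the siRNA groups and Sms did not, and whether their changes differed was not tested. Srm stood at 121.9, 126.0, 118.9 and 112.3 CPM in Klf4 siRNA samples 1 to 4, at 104.4, 103.0, 111.2 and 107.0 CPM in Scramble and at 137.9, 140.0, 121.9 and 138.2 CPM in Vehicle. Scramble was lowest without overlap, and Vehicle sample 3 lay within the Klf4 siRNA range. Srm rose by 0.18 ± 0.05 with Klf4 siRNA over Scramble (1.13-fold, edgeR adjusted p = 0.01316) and was lower in Scramble than in Vehicle by a log2 fold change of -0.34 ± 0.05 (79.1%, adjusted p = 0.0001144). Between Klf4 siRNA and Vehicle it fell by 0.16 on the log2 scale (SE 0.06, adjusted p = 0.0446). That last call was lost without Vehicle sample 1, 2 or 4 (adjusted p = 0.0862, 0.0990 and 0.111) and without Klf4 siRNA sample 3 or 4 (0.0849 and 0.0990), or without samples 1 and 4 together (0.132).

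Sms followed another order. It stood at 28.63, 26.75, 29.73 and 29.21 CPM in Klf4 siRNA samples 1 to 4, at 29.56, 29.51, 29.29 and 29.88 CPM in Scramble and at 41.93, 36.87, 44.01 and 37.79 CPM in Vehicle. Every Vehicle sample was higher than all 8 transfected samples. Sms was 73.7% of the Vehicle level in Scramble (log2 fold change -0.44 ± 0.06, edgeR adjusted p = 7.194e-05) and 71.7% with Klf4 siRNA (-0.48 ± 0.07, adjusted p = 0.0001605). Klf4 siRNA and Scramble differed by -0.04 (95% interval -0.17 to 0.08, adjusted p = 0.585). The coding sequences of Srm and Sms are 45.8% identical over 756 aligned bases, too far apart to share many reads, while 7 pseudogenes resemble Sms and 1 resembles Srm.

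Smox (chromosome 2, 131491496 to 131525922, plus strand) encodes spermine oxidase, which turns spermine back into spermidine and gives off hydrogen peroxide. It stood at 42.68, 46.94, 43.29 and 41.63 CPM in Klf4 siRNA samples 1 to 4, at 31.83, 25.47, 26.24 and 29.65 CPM in Scramble and at 34.25, 34.12, 29.39 and 32.32 CPM in Vehicle. All 4 Klf4 siRNA samples were higher than all 8 others. Smox rose 1.54-fold with Klf4 siRNA over Scramble (log2 fold change 0.63 ± 0.08, edgeR adjusted p = 3.795e-05) and was 1.35-fold higher than in Vehicle (0.43 ± 0.07, adjusted p = 0.0002184). Scramble and Vehicle overlapped, with a log2 fold change of -0.20 (95% interval -0.37 to -0.03, adjusted p = 0.0504). That difference lay at the threshold and passed it with DESeq2 (adjusted p = 0.0359), with RLE scaling (0.0464), with all 12 samples in 1 fit (0.0378), without Vehicle sample 3 (0.0263) or without Scramble sample 1 (0.0181). Smox has 17 GENCODE transcripts and no near copy by the same criteria.

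**Figure D2:**
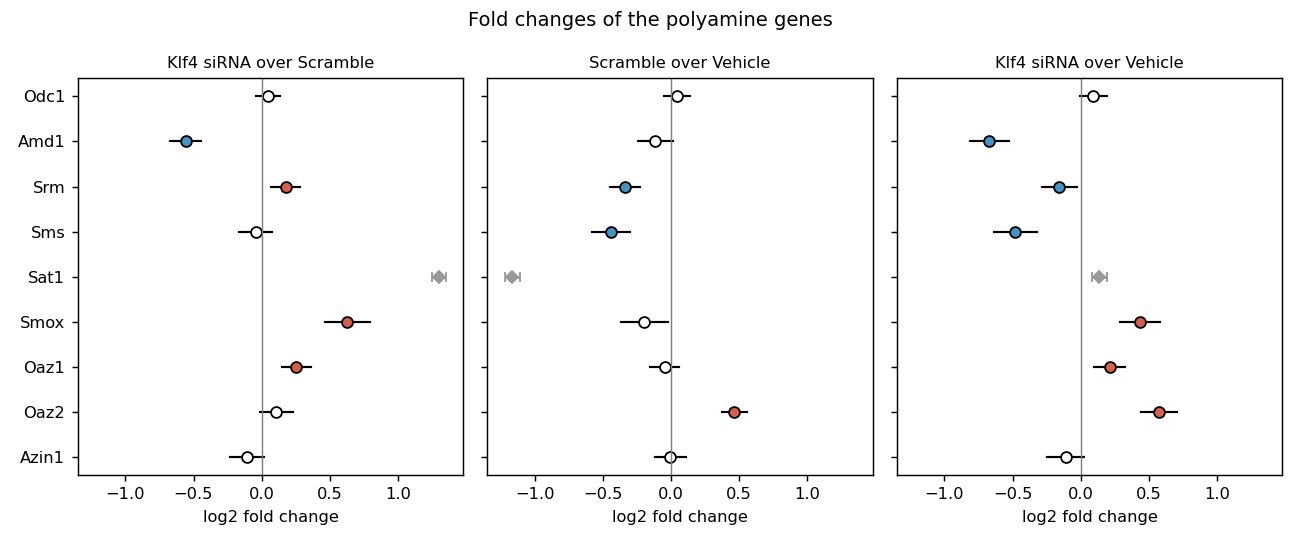
Log2 fold change of each polyamine gene in the 3 comparisons; lines are 95% intervals, filled circles passed the edgeR test at an adjusted p under 0.05 (red higher, blue lower), and open circles did not. Grey diamonds give Sat1, described without a test, with bars of 1 SE. Amd1 at -0.56 and Smox at 0.63 are the members farthest from 0 on either side in the first panel after Sat1.

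The antizymes bind ornithine decarboxylase, block its pairing and lead it to the proteasome, and they also damp polyamine uptake. Both Oaz1 and Oaz2 mRNAs carry a stop codon inside the reading frame, and a +1 shift of the ribosome there, which polyamines promote, gives the full protein. The sites are printed since the level of these mRNAs does not show how often they are read through. Each line is 30 bases of a GENCODE M21 transcript with the TGA stop in capitals.

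Oaz1: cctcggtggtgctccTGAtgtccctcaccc

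Oaz2: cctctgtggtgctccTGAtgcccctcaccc

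In Oaz1 the stop follows 68 codons and the shifted frame gives 227 codons in all, and in Oaz2 the numbers are 32 and 189. The coding sequences of the 2 genes were 62.6% identical over 567 aligned bases. By the criteria used for Amd1, Oaz1 has 1 pseudogene and Oaz2 has 2, none of them listed.

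Oaz1 (chromosome 10, 80826656 to 80829290, plus strand) had the highest level per kilobase of the 9 genes in every group. It stood at 375.6, 401.3, 383.1 and 348.8 CPM in Klf4 siRNA samples 1 to 4, at 293.3, 323.1, 322.3 and 330.1 CPM in Scramble and at 351.1, 309.9, 326.7 and 323.0 CPM in Vehicle. Klf4 siRNA was higher than Scramble without overlap, and Vehicle sample 1 passed the lowest Klf4 siRNA sample. Oaz1 rose 1.19-fold with Klf4 siRNA over Scramble (log2 fold change 0.26 ± 0.05, edgeR adjusted p = 0.00156) and was 1.16-fold higher than in Vehicle (0.21 ± 0.05, adjusted p = 0.00578). Scramble over Vehicle was -0.05 (95% interval -0.15 to 0.06, adjusted p = 0.448).

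Oaz2 (chromosome 9, 65668001 to 65690300, plus strand), lower per kilobase than Oaz1, set both transfected groups apart from Vehicle. It stood at 214.4, 178.5, 184.7 and 183.6 CPM in Klf4 siRNA samples 1 to 4, at 179.5, 175.1, 172.6 and 181.6 CPM in Scramble and at 133.4, 129.5, 122.1 and 129.0 CPM in Vehicle. Every Vehicle sample was lower than all 8 others. Oaz2 was 1.38-fold higher in Scramble than in Vehicle (log2 fold change 0.46 ± 0.04, edgeR adjusted p = 1.054e-06) and 1.49-fold higher with Klf4 siRNA (0.58 ± 0.06, adjusted p = 8.252e-06). Klf4 siRNA over Scramble was 0.11 (95% interval -0.01 to 0.23, adjusted p = 0.148), and Klf4 siRNA sample 1 was the highest of all.

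Azin1 (chromosome 15, 38487427 to 38519266, minus strand) encodes an antizyme inhibitor, a relative of ornithine decarboxylase that lacks its activity and takes antizyme away from it. Its coding sequence was 59.9% identical to that of Odc1 over 1338 aligned bases. It stood at 246.6, 209.6, 204.9 and 218.4 CPM in Klf4 siRNA samples 1 to 4, at 222.4 to 254.6 CPM in Scramble and at 223.2 to 251.5 CPM in Vehicle. The ranges of Scramble and Vehicle overlapped, and that of Klf4 siRNA overlapped both only through its sample 1. The log2 fold change was -0.11 for Klf4 siRNA over Scramble (95% interval -0.24 to 0.02, edgeR adjusted p = 0.177), -0.11 over Vehicle (-0.25 to 0.02, adjusted p = 0.168) and -0.01 for Scramble over Vehicle (-0.12 to 0.11, adjusted p = 0.936). Without Klf4 siRNA sample 1, Azin1 was lower than in Scramble by -0.17 (adjusted p = 0.0141) and than in Vehicle by -0.19 (0.0152), and without samples 1 and 4 by -0.19 (0.0104) and -0.21 (0.0297). That Azin1 with Klf4 siRNA did not pass against Scramble or Vehicle thus rested on 1 library. It was the same sample that was highest for Sat1, Oaz2 and Amd1 within its group.

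To compare levels between genes, CPM was divided by the gene length in the tables. This length exceeds that of a single coding transcript by unlike factors, at 2774 against 1162 bases for Sat1 and 6256 against 4871 for Azin1. The order between genes, and which of them change places between groups, thus depends on the length used. Other lengths were not tried. In Scramble the order was Oaz1 at 124 CPM per kilobase, Odc1 at 82.7, Srm at 66.5, Oaz2 at 59.3, Azin1 at 38.0, Sat1 at 24.0, Amd1 at 10.8, Smox at 7.27 and Sms at 4.92, and no neighbours in this order overlapped between samples. With Klf4 siRNA, Sat1 stood above Azin1, at 59.0 against 35.1 CPM per kilobase, and Smox above Amd1, at 11.2 against 7.32. The neighbours Srm and Oaz2, and Oaz2 and Sat1, overlapped there. In Vehicle, Sat1 was 4th at 53.9 CPM per kilobase, above Oaz2 at 43.0, and Srm at 84.1 overlapped Odc1 at 80.2. Oaz1 was highest and Sms lowest in each group.

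**Figure D3:**
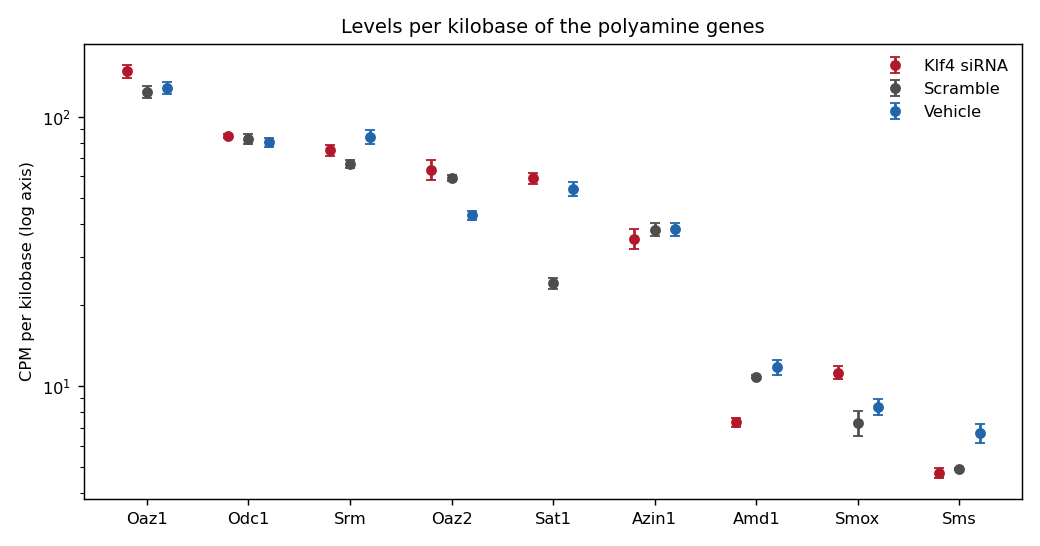
Mean level per kilobase of the 9 polyamine genes in each group, on a log axis, with bars of 1 SD over 4 samples. Sat1 sits at 24.0 CPM per kilobase in Scramble and at 59.0 and 53.9 in the other groups, and Amd1 and Smox swap places between Klf4 siRNA and the other groups. The order between genes depends on the gene length used.

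Set against each other within a sample, Sat1 per kilobase was 0.695 ± 0.040 of Odc1 with Klf4 siRNA, 0.291 ± 0.024 in Scramble and 0.674 ± 0.066 in the 4 Vehicle samples (mean ± SD). This ratio of a breakdown gene to a synthesis gene moved with Sat1, because Odc1 kept a narrow range. Smox per kilobase was 1.54 ± 0.12 times Amd1 with Klf4 siRNA, 0.672 ± 0.076 in Scramble and 0.716 ± 0.088 in Vehicle. Its lowest Klf4 siRNA value, 1.43, was above the highest of the others, 0.820, while Scramble and Vehicle overlapped. Oaz2 was 0.433 ± 0.047 of Oaz1 with Klf4 siRNA, 0.479 ± 0.030 in Scramble and 0.336 ± 0.017 in Vehicle, lowest in Vehicle without overlap. Azin1 was 0.239 ± 0.027 of Oaz1 with Klf4 siRNA, below its 0.307 ± 0.012 in Scramble and 0.298 ± 0.009 in Vehicle in every sample. The ratios are given without a test, since they combine the same measurements. Their size depends on the gene lengths used, while their order between groups does not.

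Genes that feed the pathway, use its products or carry polyamines were followed as a wider list of 32, of which 25 were measured. With Klf4 siRNA over Scramble, 5 rose, 3 fell and 17 did not pass, with a median log2 fold change of 0.02. Between Scramble and Vehicle 3 were higher in Scramble, 11 lower and 11 did not pass, with a median of -0.12. Between Klf4 siRNA and Vehicle the counts were again 3, 11 and 11, with a median of -0.10. These are shares of 32%, 56% and 56%, beside 36%, 53.9% and 45.4% over all genes tested. The first count fell from 8 to 5 without Scramble sample 2, 3 or 4. The number of all genes called, 4561 with all samples, also fell in each of these runs. Whether the list lost a larger share than all genes was not tested. The genes of the list lost in at least 1 of these runs were Arg2, Azin2, Amd2 and Slc25a15. Their adjusted p lay between 0.0191 and 0.0393 with all samples and between 0.0561 and 0.116 in the runs that lost them.

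Among genes of hypusination, the use of spermidine to modify the translation factor eIF5A, 2 of 4 rose with Klf4 siRNA over Scramble, where 36% of all genes tested were called in either direction. Dhps, the synthase that takes the aminobutyl group from spermidine, stood at 41.7 to 49.3 CPM with Klf4 siRNA, 34.6 to 37.5 CPM in Scramble and 48.4 to 51.2 CPM in Vehicle. Its log2 fold change was 0.31 ± 0.06 for Klf4 siRNA over Scramble (edgeR adjusted p = 0.00163) and -0.46 ± 0.05 for Scramble over Vehicle (adjusted p = 7.561e-06). Scramble was thus lowest without overlap, as it was for Srm. Dohh, the hydroxylase of the next step, rose by 0.25 ± 0.05 (adjusted p = 0.00339). Eif5a was lower in both transfected groups than in Vehicle, by -0.34 ± 0.04 in Scramble (adjusted p = 1.37e-05) and -0.27 ± 0.05 with Klf4 siRNA (adjusted p = 0.000339).

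In the methionine cycle, which supplies S-adenosylmethionine, 1 of 8 genes rose and 1 fell with Klf4 siRNA over Scramble, again beside 36% of all genes. Mat2a, the catalytic subunit that makes S-adenosylmethionine, fell by 0.18 on the log2 scale (SE 0.04, edgeR adjusted p = 0.00601), and Adi1, a dioxygenase of methylthioadenosine salvage, rose by 0.21 ± 0.05 (adjusted p = 0.00760). Mat2b, the regulatory subunit, stood at 72.2 to 84.9 CPM with Klf4 siRNA, 75.6 to 82.1 CPM in Scramble and 110.0 to 131.4 CPM in Vehicle. It was lower in Scramble than in Vehicle by -0.64 ± 0.06 (adjusted p = 9.081e-07) and with Klf4 siRNA by -0.63 ± 0.07 (adjusted p = 1.205e-05). This was the Sms pattern, with Vehicle apart from both transfected groups. Mtap, which cleaves the by-product of both synthases, was lower than in Vehicle by -0.28 ± 0.05 in Scramble (adjusted p = 0.000404) and -0.43 ± 0.06 with Klf4 siRNA (adjusted p = 6.648e-05). Between Klf4 siRNA and Scramble, Mtap lay at the threshold (-0.16 ± 0.06, adjusted p = 0.0511). It passed with DESeq2 (0.0307), RLE scaling (0.0459) and all 12 samples in 1 fit (0.0382), and without Scramble sample 2 (0.0354), Klf4 siRNA sample 1 (0.0109) or Klf4 siRNA samples 1 and 4 (0.0288).

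Of 5 genes of ornithine and arginine supply, 2 were called higher with Klf4 siRNA than in Scramble and none lower, a share near the 36% of all genes. Arg2, the mitochondrial arginase, rose by 0.31 ± 0.11 (edgeR adjusted p = 0.0393), a call lost without Klf4 siRNA sample 1 or 4 or Scramble sample 2, 3 or 4 (adjusted p from 0.0750 to 0.100). Without Klf4 siRNA samples 1 and 4 together, Arg2 differed by 0.15 (adjusted p = 0.329). Slc25a15, the mitochondrial ornithine carrier, rose by 0.19 ± 0.06 (adjusted p = 0.0191), a call lost without Klf4 siRNA sample 2 or Scramble sample 2 or 3 (0.0538 to 0.0576). Oat, which turns ornithine away from polyamines, was 209.4 to 238.0 CPM in the transfected groups and 265.8 to 282.9 CPM in Vehicle, with a log2 fold change of -0.34 ± 0.04 for Scramble over Vehicle (edgeR adjusted p = 7.144e-06). Slc7a1, an importer of arginine, was lower than in Vehicle by -0.26 ± 0.07 in Scramble (adjusted p = 0.00597) and -0.40 ± 0.07 with Klf4 siRNA (adjusted p = 0.000401). Slc25a15 went the other way, higher than in Vehicle by 0.17 ± 0.05 in Scramble (adjusted p = 0.0125) and 0.37 ± 0.06 with Klf4 siRNA (adjusted p = 0.000261). In transport, none of 4 passed between Klf4 siRNA and Scramble by edgeR or by DESeq2. The 4 had unadjusted p-values from 0.0223 to 0.988, 1 of them under 0.05 (Slc3a2), which passed without Scramble sample 1 (adjusted p = 0.0276) or Klf4 siRNA sample 4 (0.0187), without Klf4 siRNA samples 1 and 4 (0.0221) and with no filter on low counts (0.0439). Atp13a2, the lysosomal polyamine exporter, was 1.32-fold higher than in Vehicle in both transfected groups (adjusted p = 0.000423 and 0.00222). Slc3a2, the heavy chain of amino acid transporters that has been tied to polyamine export, was 74.2% of the Vehicle level in Scramble (adjusted p = 2.527e-06) and 81.1% with Klf4 siRNA (adjusted p = 0.000236).

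The remaining sublist held other catabolic and antizyme-related genes and Amd2, a copy of the synthesis gene Amd1. Of its 4 measured genes, 2 fell with Klf4 siRNA over Scramble, beside 36% of all genes called in either direction. Azin2, the second antizyme inhibitor, stood at 21.8 to 24.6 CPM with Klf4 siRNA, 24.6 to 28.6 CPM in Scramble and 32.6 to 37.2 CPM in Vehicle. It was lowest with Klf4 siRNA, by -0.21 ± 0.07 against Scramble (edgeR adjusted p = 0.0369) and -0.59 ± 0.07 against Vehicle (adjusted p = 2.536e-05). The first of these calls was lost without any of Klf4 siRNA samples 1, 3 and 4 or Scramble samples 2, 3 and 4, with adjusted p-values of 0.0626 to 0.116, and without samples 1 and 4 together (0.175). Amd2, the Amd1 copy described above, was the other gene that fell, so Azin2 was the only catabolic or antizyme-related gene of the sublist to do so. Oaz3, a further antizyme gene, was higher in Scramble than in Vehicle by 0.24 ± 0.08 (adjusted p = 0.0272), a call lost without Vehicle sample 1 or 3 or Scramble sample 2 (0.0609 to 0.0745). Paox, named after its values were seen, encodes the oxidase that acts on the acetylated polyamines that Sat1 makes. Its log2 fold change was -0.15 for Klf4 siRNA over Scramble (95% interval -0.36 to 0.06, adjusted p = 0.257), and it passed in no comparison.

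**Figure D4:**
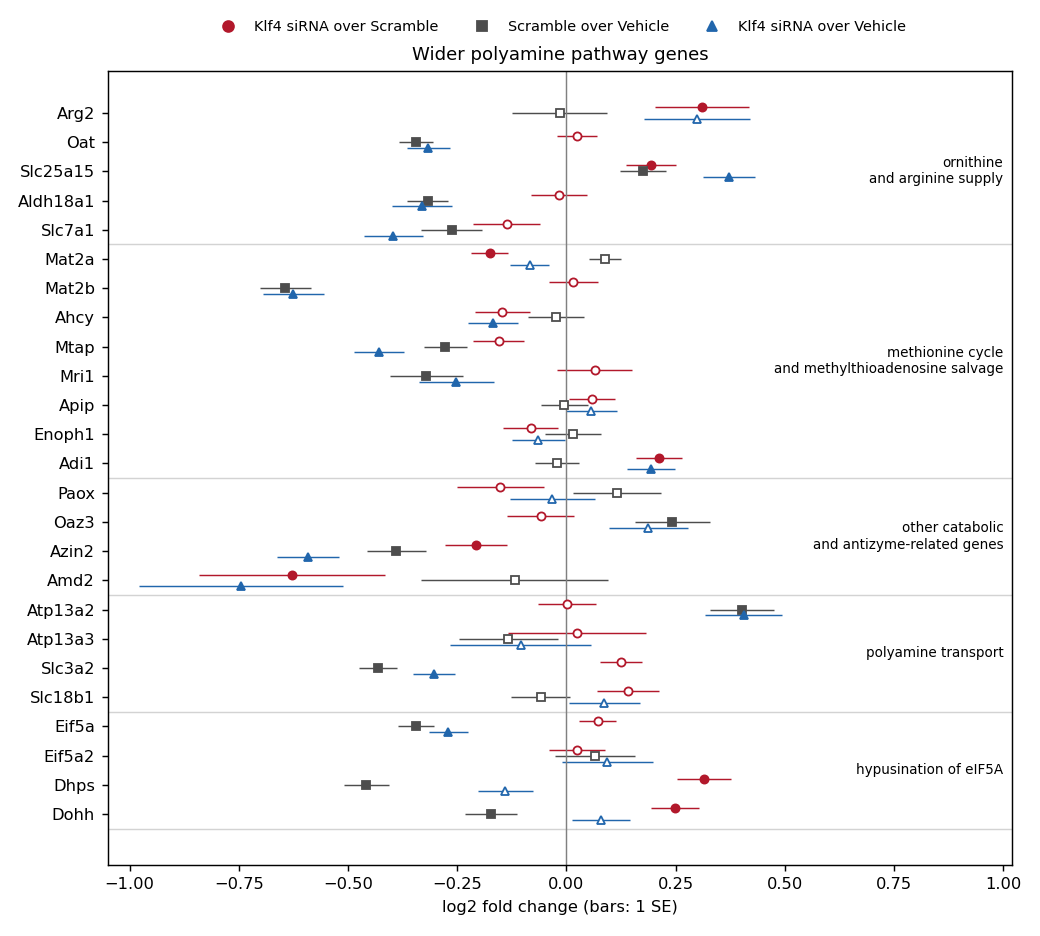
Log2 fold changes of the 25 measured genes of the wider polyamine pathway in the 3 comparisons, with bars of 1 SE; filled symbols passed the edgeR test at an adjusted p under 0.05. Mat2b lies at -0.64 and -0.63 against Vehicle and near 0 between the siRNA groups, and Dhps lies at 0.31 and -0.46 on either side of Scramble.

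The genes whose level followed Sat1 most closely across the 12 samples were sought by Pearson's r of log2 CPM over 10579 genes. They were Ctsb (r = 0.989), a lysosomal protease, Ciart (0.989), a repressor of the circadian clock, Itgb1bp1 (0.987), which binds an integrin tail, Atp6v1a (0.986), a subunit of the vacuolar proton pump, and Rnf128 (0.986), a ubiquitin ligase. Each was lowest in Scramble, as Sat1 was, which follows from how they were picked. Ctsb averaged 1067 CPM with Klf4 siRNA, 597.2 CPM in Scramble and 973.8 CPM in Vehicle, and Ciart 14.6, 6.17 and 12.7 CPM. For Odc1, which held a narrow range, the closest gene was Bud13 at r = 0.883, with 25.8, 24.0 and 22.9 CPM, followed by Cdc25b (0.855), Cuedc1 (0.844), Armcx6 (0.839) and Trmu (0.837). The points are 12 libraries in 3 groups, so an r for Sat1 mostly reflects group means, and it is a description with no test.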

How the data were processed

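RNA-seq was made from 12 GT1-7 samples, grouped by their titles, with libraries from a Takara SMART-Seq kit, which does not mark strand. The submitters' processing notes name mm10, STAR, Subread, edgeR, STAR-Fusion and FastQC, with no roles or versions. The authors deposited raw counts per gene and sample, per the file headers, in 3 tables, 1 per pair of groups. Counts of 1 sample did not differ between tables. The tables also held the authors' RPKM values, which were not used for tests, and the authors' log2 fold changes, p-values and a score for their calls, per the file headers.

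Counts were tested with edgeR 4.0.16 (quasi-likelihood, TMM, default filter on low counts) in R 4.3.3 with limma 3.58.1, on the 8 samples of each comparison. The threshold was an adjusted p under 0.05, by Benjamini-Hochberg over all genes tested. Sat1 was fitted but not tested. Intervals are 95%. Levels are CPM scaled by TMM over 12 samples. Alternatives were DESeq2 1.42.0, RLE scaling, no filter, 1 fit over 12 samples, a replicate block and samples left out. Genes named were the 9 members, up to 4 called genes per wider list and comparison, and the 5 most like Sat1 and Odc1 in pattern. The genes, lists and rules were chosen with earlier results of these data known. Depth was 25992363 to 39674984 counts per sample, and biological coefficients of variation were 8.01%, 7.30% and 9.01%. Positions and transcripts came from GENCODE M21, where 12777 gene IDs matched without their version, and promoters from RefSeq. Near copies were sought with blastn 2.17.0, and coding sequences aligned with mafft 7.526. The fit was tested on simulated counts.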

Additional observations from a re-analysis of the deposited data

Results flagged for a closer look

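Srm was 121.9 CPM in Vehicle sample 3, the lowest of its group, with the nearest sample at 137.9 and the highest at 140.0 CPM. It was the 1 group of 4 samples, of 30 looked at, whose end sample lay this far from the others (gap of 0.883 of the range, past Dixon's 95% critical value). Chance gives such a sample in about 1 of 20 groups. Without it, the log2 fold change of Srm in Scramble over Vehicle was -0.38 (adjusted p = 3.16e-05), and with Klf4 siRNA over Vehicle -0.20 (adjusted p = 0.0136), both called as before.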

How the results depend on the processing

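Of 328 values of the 8 tested polyamine genes under alternatives, 305 kept their direction and side of the threshold, 11 newly passed, 6 no longer passed and 6 changed sign. Of 1025 values of the wider genes, 909 kept both, 23 newly passed, 49 no longer passed and 44 changed sign. Sat1 stayed within 1.27 to 1.33 for Klf4 siRNA over Scramble, -1.20 to -1.13 for Scramble over Vehicle and 0.09 to 0.17 for Klf4 siRNA over Vehicle. With a replicate block, 4, 4 and 6 of the 8 and 7, 13 and 14 of the wider 25 were called for Klf4 siRNA over Scramble, Scramble over Vehicle and Klf4 siRNA over Vehicle. The block ended the calls on Azin2 (adjusted p = 0.0584) and Amd2 (0.0705) for the first, Dohh (0.0686) for the second and Ahcy (0.0509) for the last, and added Mtap (0.0498), Smox (0.0448) and Arg2 (0.0415) in that order. Same-numbered samples correlated at -0.17 to 0.13 and not every sample correlated best with its own number, so the numbers were not taken to pair the samples. The wider count between Klf4 siRNA and Scramble, 8 with all samples, was 5 to 9 with 1 sample left out, and the cause was not tested. The number of all genes called there, 4561 with all samples, was also lower without any 1 sample except Klf4 siRNA sample 1. All 50 changes of sign were of genes whose log2 fold change with all samples lay within 1 SE of 0, some of them with a wide spread. None passed under an alternative that turned its sign (lowest adjusted p 0.296), and the cause of the changes was not tested. With 1 sample left out, log2 fold changes for Scramble over Vehicle ran from -0.0368 to 0.0366 for Azin1, -0.0722 to 0.0011 for Oaz1, -0.082 to 0.0653 for Arg2, -0.0606 to 0.0354 for Ahcy, -0.0282 to 0.0309 for Apip, -0.0059 to 0.0806 for Enoph1, -0.0445 to 0.0037 for Adi1 and -0.023 to 0.1508 for Eif5a2. For Klf4 siRNA over Scramble they ran from -0.0153 to 0.0456 for Oat, -0.0804 to 0.0271 for Aldh18a1, -0.0205 to 0.0544 for Mat2b, -0.0472 to 0.0581 for Atp13a2, -0.1201 to 0.1777 for Atp13a3 and -0.0424 to 0.0656 for Eif5a2. For Klf4 siRNA over Vehicle they ran from -0.2563 to 0.0287 for Atp13a3. Without Klf4 siRNA samples 1 and 4 the values over Scramble were -0.0226 for Oat, 0.0343 for Aldh18a1, -0.0171 for Mat2b and -0.0751 for Eif5a2, and over Vehicle -0.0164 for Eif5a2. Atp13a2 over Scramble was -0.0026 with DESeq2 and with RLE scaling, -0.0043 with 12 samples in 1 fit and -0.0025 with the replicate block, which gave Atp13a3 -0.0012. Depth limited Amd2 most, at 23 to 53 counts per sample.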
